A study of Lobosphaera incisa with 32 samples.

Results

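One gene can give rise to several transcripts through alternative splicing, alternative transcription starts or alternative ends, and the mixture of these transcripts can change while the total output of the gene stays the same. A change of the mixture can alter the encoded protein, the untranslated ends of the mRNA or whether the transcript is translated at all. In green algae, as in plants, retained introns are a common form of alternative splicing.

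The 100 genes described here are those of the green microalga *Lobosphaera incisa* whose mixture of transcripts shifted most after 72 h of nitrogen (N) deprivation, out of 16722 genes in all. They were chosen by the measured values themselves. Of 2501 genes with 2 or more transcripts, 1478 had a summed abundance of at least 10 FPKM (fragments scaled to transcript length and to the depth of the library) in each of 4 conditions. The share of a transcript is its FPKM as a percentage of the sum over the transcripts of its gene. For each transcript, the change of share from the replete culture was taken at 72 h under both lights. If the changes had the same sign, the smaller was kept, and otherwise 0 was set. The score of a gene is the largest value over its transcripts in percentage points (points below), and the 100 highest of 1477 ranked genes were taken, 1 gene being left out by the rule. The shares at 72 h and in the replete culture are therefore a description of the chosen genes and were not tested.

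*L. incisa* strain SAG 2468 was grown at 75 (normal light, NL) or 150 (high light, HL) µmol photons m-2 s-1. The conditions are the nutrient-replete Control at 0 h under NL, N deprivation for 12 h under HL (Nst12hHL), for 72 h under NL (Nst72hNL) and for 72 h under HL (Nst72hHL). For every condition 2 biological replicates were sequenced in 4 technical replicates, and the authors deposited 1 pooled value per transcript, from totals of 148630273, 285924033, 329774484 and 214719396 expected counts in that order. Since the spread between cultures is lost by pooling, no test between conditions is given, and every difference below compares 1 pooled value with another. Of the comparisons with Control, only that of Nst72hNL keeps the light the same. The effect of N cannot be told apart from that of time because the replete culture was sampled at 0 h only.

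The scores of the 100 genes lay between 13.4 and 79.3 points with a median of 17.4 points, against a median of 2.17 points over all ranked genes. In 13 genes the score was at least 30 points, in 34 it was at least 20 points and in the remaining 66 it was below 20 points. The ranking falls without a step at the end of the list. The last genes inside were g8864 with 13.51 points and g7306 with 13.44 points, and the first outside were g3729 with 13.43 points and g5323 with 13.42 points. The files do not pair gene IDs with product names, and g3729 is ATG12 by the annotation in the paper.

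**Figure D1:**
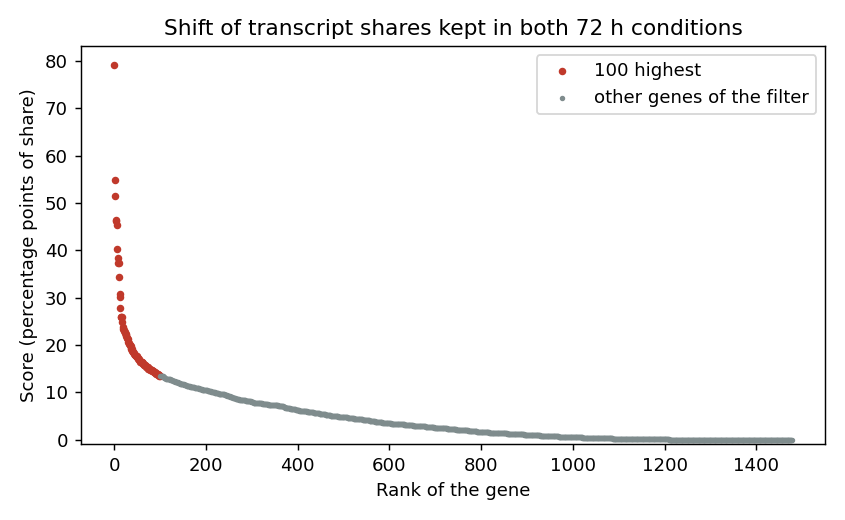
Score of each of the 1477 ranked genes (percentage points of share, y axis) against its rank (x axis). The 100 genes described, in red, run between 13.4 and 79.3 points and pass into the other genes without a gap.

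The gaining transcript of a gene is the one whose share rose most in the mean of both 72 h conditions, and the losing transcript is the one whose share fell most. The median share of the gaining transcript was 36.1% in Control, 47.0% at Nst12hHL, 62.2% at Nst72hNL and 58.1% at Nst72hHL. That of the losing transcript was 52.2%, 42.1%, 26.8% and 24.2% in the same order. At 12 h the median thus stood between Control and 72 h for both transcripts. The gaining transcript was the most abundant of its gene in 71 genes at Nst72hNL and 66 at Nst72hHL, against 34 in Control. The losing transcript had under 5% of its gene in 9 genes at Nst72hNL and 15 at Nst72hHL, and in 0 genes in Control. Gaining and losing transcripts are defined by these same shares, so the direction of the changes at 72 h is built in. The medians and counts were not taken over all genes that met the FPKM minimum. They describe the chosen genes only.

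**Figure D2:**
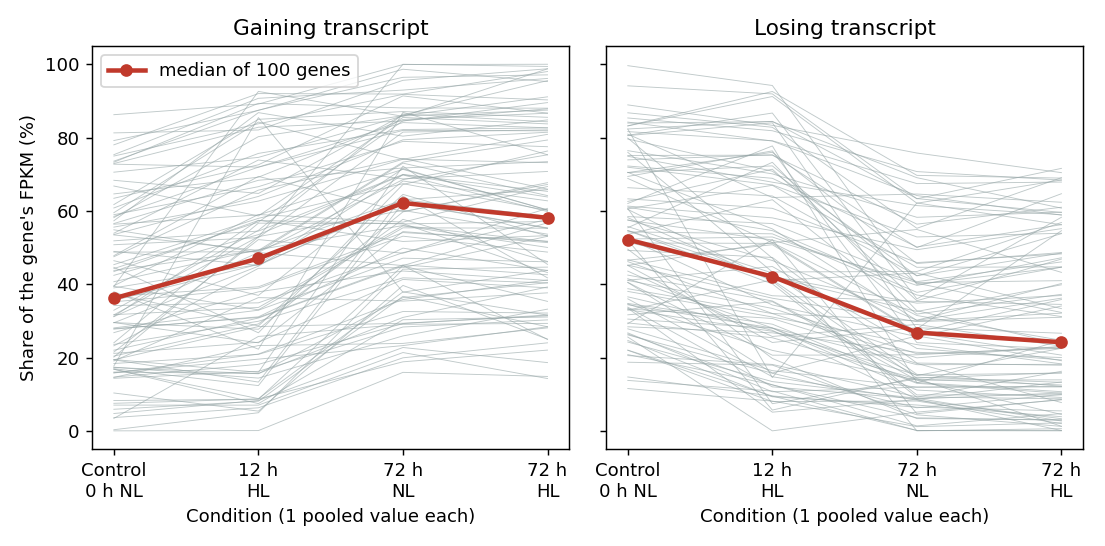
Share of the gene's FPKM (%, y axis) held by the gaining transcript (left) and the losing transcript (right) in the 4 conditions, 1 thin line per gene and the median of the 100 genes in red. The median gaining share is 36.1% in Control and 62.2% at Nst72hNL, and single lines start anywhere between 0 and 86.2%.

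The most abundant transcript of the gene at Nst72hNL was another one than in Control in 39 of the 100 genes, where 8.32% of all 1478 genes had such a change. At Nst72hHL it was another one in 35 genes, beside 7.1% of all 1478. The same transcript had taken over in both 72 h conditions in 33 of the 100 genes, beside 5.55% of the 1478. In 16 of these 33 the new transcript was the most abundant at 12 h already, and in 17 the transcript of Control still was. In 60 of the 100 genes the transcript that led in Control also led in both 72 h conditions, so these shifted in proportion without a change of the leading transcript. Keeping the leading transcript is no trait of the 100 genes. Over the 1478 it differed from Control in only 8.32% at Nst72hNL and 7.1% at Nst72hHL. The rule used the same contrasts, so nothing is read from the excess over the background, nor from the changes of at least 10 points that all 100 genes had in both 72 h conditions (25.1% of the 1478 genes at Nst72hNL and 20.2% at Nst72hHL).

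The largest score belonged to g2712, a gene with a transcript of 1207 bases (t1) and one of 933 bases (t2). In pooled FPKM, t1 held 20.1% of the gene in Control, 52.9% at Nst12hHL, 100% at Nst72hNL and 99.4% at Nst72hHL. Its own level was 4.15 FPKM in Control, 14.14 FPKM at Nst12hHL, 28.68 FPKM at Nst72hNL and 24.90 FPKM at Nst72hHL, while t2 was listed at 16.46, 12.59, 0 and 0.15 FPKM. The longer transcript was thus nearly alone at 72 h under both lights. The starting point of this gene is uncertain, because the mean normalized counts that the authors list per condition, divided by transcript length, place t1 at 56.1% in Control. With those means the 72 h shares of t1 were 98.7% under NL and 96.6% under HL, and the score was 40.5 points, the sixth highest, where pooled FPKM gave 79.3 points. In both summaries t1 held a larger share at 72 h than in Control. Which of the summaries is nearer to the cultures was not tested.

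In g15391 a single transcript made up the gene in Control and 3 transcripts did at 72 h. The transcript t2 (2483 bases) held 99.6% in Control, 94.2% at Nst12hHL, 39.9% at Nst72hNL and 44.6% at Nst72hHL. The longer t1 (3296 bases) had 0.309%, 4.94%, 44.1% and 44.7%, and the shorter t3 (1237 bases) had 0.0739%, 0.849%, 16.0% and 10.7%. The gene as a whole fell, with 148.82 FPKM in Control, 45.94 at Nst12hHL, 90.42 at Nst72hNL and 96.63 at Nst72hHL. At 12 h the total was therefore already low while the mixture was still near that of Control. The authors' means over length gave t1 42.9% at Nst72hNL and 43.1% at Nst72hHL, against 0.360% in Control.

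In g7685 and g11344 the shorter transcript gained. The 1825-base transcript of g7685 had 32.9% of the gene in Control, 54.7% at Nst12hHL, 86.4% at Nst72hNL and 84.3% at Nst72hHL, and the 3023-base transcript had 58.2%, 40.9%, 9.80% and 9.83%. The gene total hardly moved, with 34.53, 29.73, 31.24 and 27.98 FPKM. In g11344 the 4102-base transcript held 39.4% in Control, 92.6% at Nst12hHL, 85.8% at Nst72hNL and 98.7% at Nst72hHL, beside a 4336-base transcript with the remainder. Here the mixture at 12 h was already that of 72 h, and the share under NL was the lowest of the 3 starved conditions. The authors' means over length differed from these shares by little, with 28.7% for the gaining transcript of g7685 and 39.9% for that of g11344 in Control.

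**Figure D3:**
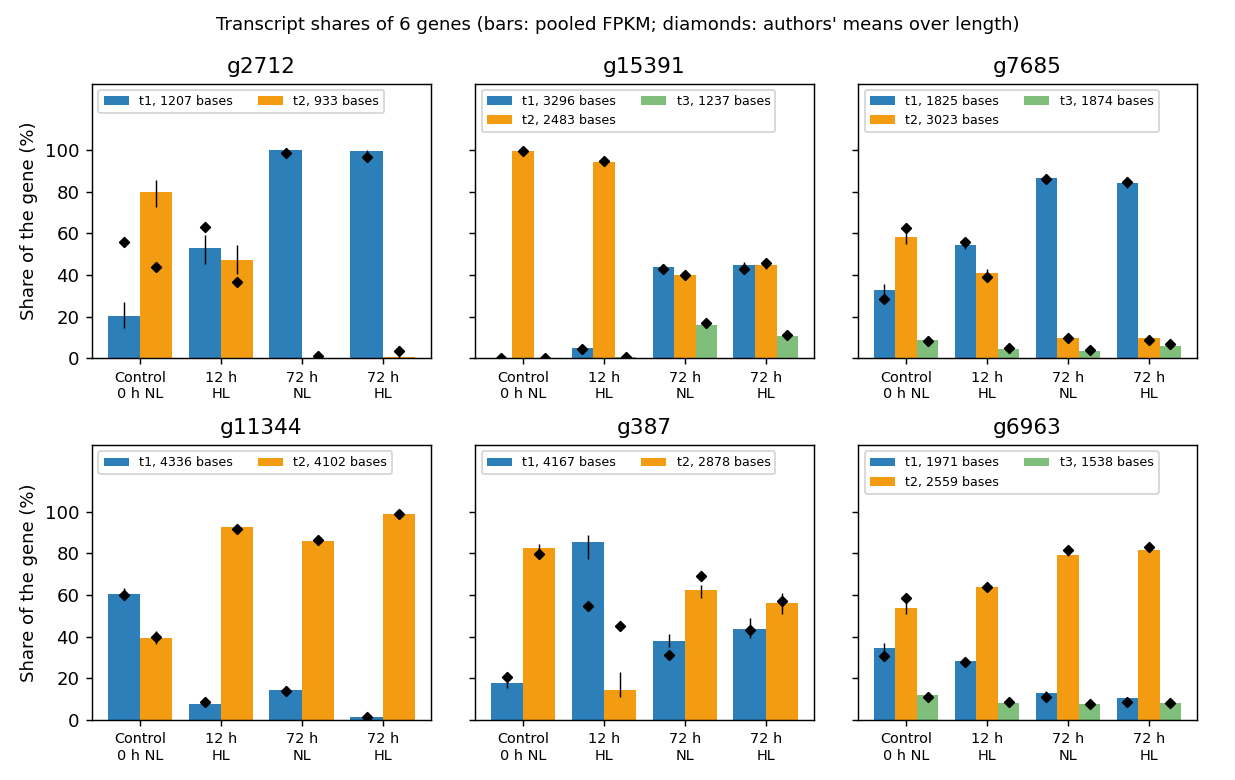
Share of each transcript (%, y axis) in the 4 conditions for 6 genes, bars from pooled FPKM with bounds from the 95% intervals of RSEM, diamonds from the authors' mean normalized counts over length. In g2712 the bar of t1 in Control is at 20.1% and its diamond at 56.1%, in g387 the 12 h bar of t1 is at 85.5% and its diamond at 54.9%, and in the other 4 genes diamonds lie close to the bars.

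The precision of a share within its pool can be read from the intervals RSEM gives, which cover counting and read assignment but not the difference between cultures. Taking for each share the lowest and highest value that the 95% FPKM bounds of its gene's transcripts allow, the scoring transcript's range was apart from that of Control in 99 of the 100 genes at Nst72hNL and 98 at Nst72hHL, where it was in 47.2% and 38.4% of the 1478 genes. As the same values chose the genes for large shifts, these counts are a description only. The exceptions, named after their values were seen, were g6272 at rank 81, under both lights, and g7045 at rank 98, under HL. The median width of these ranges was 4.28 points at Nst72hNL, 5.17 at Nst72hHL and 6.76 in Control, where the total of counts was smallest. The lowest summed count of any of the 100 genes was 6940 at Nst72hNL, 3807 at Nst72hHL and 2241 in Control. The widest range was 14.7 points at Nst72hNL, 19.6 at Nst72hHL and 27.3 in Control, beside a median score of 17.4 points.

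The authors' means offer a second summary of the same libraries. Scored on them, 71 of the 100 genes were again among the 100 highest and 90 among the 200 highest, and the lowest rank was 390. The median score of the 100 genes was 16.2 points with a lowest value of 6.55 points. The gaining share moved between the summaries by a median of 1.24 points at Nst72hNL, 1.60 at Nst72hHL, 1.88 at Nst12hHL and 2.90 in Control. It moved by at least 10 points in Control in 4 genes, which were g2712, g12759, g2032 and g15999, the last 3 named after their values were seen. In g12759 the gaining transcript had 59.7% at Nst72hNL and 67.7% at Nst72hHL against 29.5% in Control by pooled FPKM, and 89.7% and 90.1% against 51.7% by the means, so the shift was of like size on another level.

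**Figure D4:**
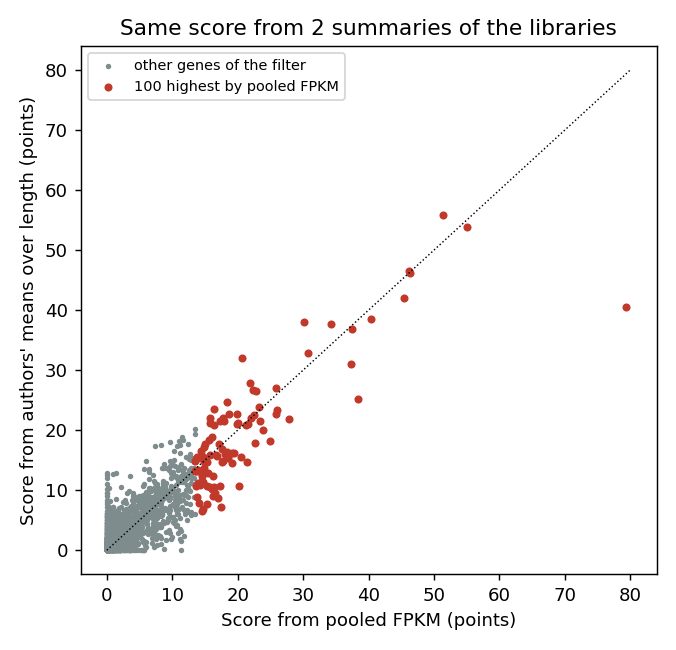
Score from the authors' mean normalized counts over length (points, y axis) against the score from pooled FPKM (points, x axis) for the 1477 ranked genes, with the line of equal values dotted. The point far below the line at 79.3 points on the x axis is g2712, and the lowest of the 100 red points on the y axis is at 6.55 points.

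The rise of one share can come with more of the gaining transcript, with less of the losing one, or with both. At a threshold of 1.5-fold in both 72 h conditions, on FPKM with 1 FPKM added, the gaining transcript was higher and the losing one lower than in Control in 24 genes. In 34 genes only the gaining transcript passed, in 31 only the losing one, and in 11 neither did. This split was not counted over all genes that met the FPKM minimum. It therefore has no background here and is not read as a trait of the chosen genes. The median log2 ratio of the gaining transcript was 0.94 at Nst72hNL and 0.77 at Nst72hHL, and that of the losing transcript was -0.74 at Nst72hNL and -0.83 at Nst72hHL. In 3 of the 34 genes the losing transcript was also at least 1.5-fold higher, less so than its partner. They were g6963 and g1692, described below, and g713, named after its values were seen.

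**Figure D5:**
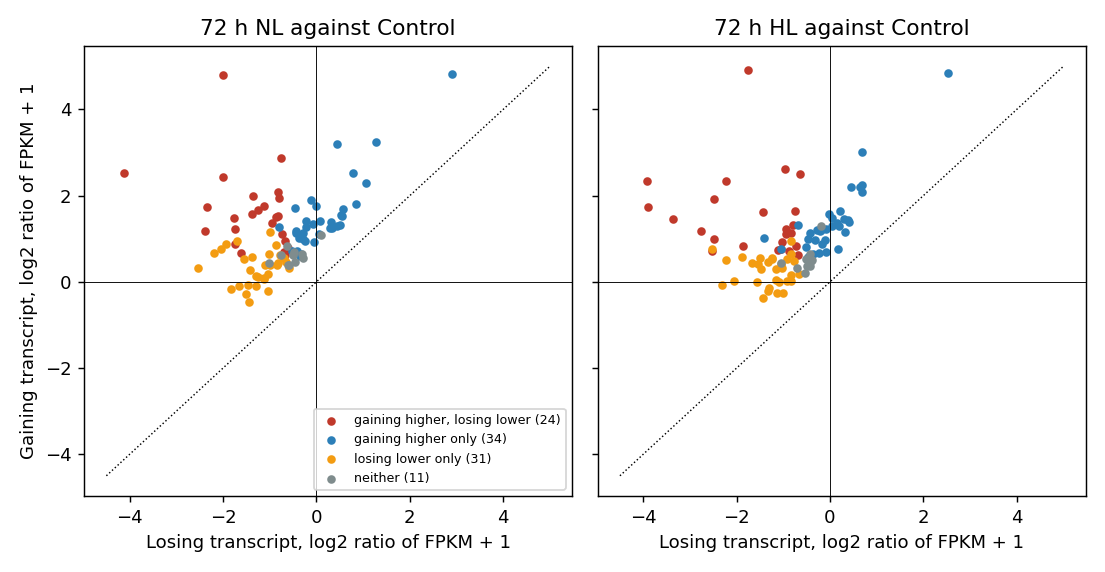
Log2 ratio to Control of FPKM + 1 for the gaining transcript (y axis) and the losing transcript (x axis), at Nst72hNL (left) and Nst72hHL (right), 1 point per gene, coloured by which of them passed 1.5-fold under both lights. The groups hold 24, 34, 31 and 11 genes, and every point lies above the dotted line of equal ratios since the genes were chosen for a shift.

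In 82 of the 100 genes the summed FPKM stayed within 2-fold of Control in both 72 h conditions, on FPKM with 1 FPKM added, beside 75.4% of the 1478 genes. The summed FPKM was at least 2-fold higher than Control in 16 of the 100 genes at Nst72hNL, beside 15.5% of the 1478 genes, and in 10 at Nst72hHL, beside 14.7%. It was at least 2-fold lower in 1 gene at Nst72hNL, beside 5.75%, and in 0 at Nst72hHL, beside 4.94%. At Nst12hHL it was at least 2-fold higher in 8 genes (7.92% of the 1478) and at least 2-fold lower in 4 (4.47%). With median-of-ratios scaling of the counts, 3 were higher and 4 lower, and the share of the 1478 under that scaling was not counted. By FPKM, the counts of higher genes were near the background at Nst72hNL and Nst12hHL and under it at Nst72hHL. Those of lower genes were under it at both 72 h conditions. With TPM in place of FPKM, 25 genes were at least 2-fold higher at Nst72hNL, beside 22.9% of the 1478, and 19 at Nst72hHL, beside 19.8%. The median log2 ratio of the gene total to Control was 0.18 at Nst72hNL, 0.06 at Nst72hHL and 0.13 at Nst12hHL, against 0.16, 0.13 and 0.15 over the 1478 genes.

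The largest rises of the gene total at Nst72hNL were those of g1692 and g6963. The total of g1692 was 36.64 FPKM in Control, 55.48 at Nst12hHL, 328.63 at Nst72hNL and 274.90 at Nst72hHL, which is 8.97-fold above Control at Nst72hNL. Its main transcript of 3007 bases had 88.9% in Control and 75.8% at Nst72hNL, and an 872-base transcript had 3.63% in Control, 6.29% at Nst12hHL, 19.9% at Nst72hNL and 24.0% at Nst72hHL. Both transcripts therefore rose and the short one rose more, although by the authors' means its share in Control was 9.37%. The total of g6963 was 66.46, 100.60, 438.58 and 363.32 FPKM in the same order of conditions. Its 2559-base transcript had 53.6% in Control, 63.9% at Nst12hHL, 79.4% at Nst72hNL and 81.5% at Nst72hHL, while the 1971-base transcript had 34.4%, 28.1%, 13.0% and 10.3%.

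The largest falls of the gene total at Nst72hNL were those of g7 and g387. The total of g7 was 56.47 FPKM in Control, 23.89 at Nst12hHL, 24.63 at Nst72hNL and 30.44 at Nst72hHL. Its 5443-base transcript had 26.8%, 37.9%, 43.6% and 41.0% of the gene, so that its share rose while its level fell to 10.74 FPKM at Nst72hNL, against 15.13 FPKM in Control. The total of g387 was 51.78 FPKM in Control, 22.41 at Nst12hHL, 26.96 at Nst72hNL and 26.15 at Nst72hHL. With g15391 and g13495, the last named after its values were seen, they were the 4 genes at least 2-fold lower at 12 h.

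At 12 h under HL, a change of at least 10 points from Control in any transcript was found in 41 of the 100 genes, beside 11.1% of the 1478 genes. The most abundant transcript differed from that of Control in 21 of the 100 genes at 12 h, beside 5.75% of the 1478. The 12 h shares were not used by the rule. The comparison uses the same Control values as the choice of the genes, so an error in a Control value would enter both. The gaining transcript was at least 10 points above Control at 12 h in 34 genes and at least 10 points below in 2, and in 64 genes it stayed within 10 points. The median change of its share was 5.00 points at 12 h, 19.7 points at Nst72hNL and 18.4 points at Nst72hHL. In 33 genes the gaining share had made at least 50% of its mean 72 h change by 12 h, and in the others it had made less. These counts of the gaining transcript were not made over the 1478 genes. The gaining transcript is itself defined against the same Control shares, so nothing is read from the direction of its change.

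By pooled FPKM, the largest change of share at 12 h was that of g387, followed by g11344. By the authors' means the order turned, with 34.5 points for g387 and 51.6 points for g11344, and g5213, named after its values were seen, lay between them with 43.8 points. The 4167-base transcript of g387 had 17.7% in Control, 85.5% at Nst12hHL, 37.8% at Nst72hNL and 43.8% at Nst72hHL, and a 2878-base transcript had the remainder. The shift at 12 h was larger than at 72 h in this gene. By the authors' means over length the same transcript had 20.4%, 54.9%, 31.1% and 43.1%, so the order of the conditions was the same and the 12 h value was much lower. The rank of g387 was 33 by pooled FPKM and 179 by the means.

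The lights at 72 h were compared with each other although the rule, which keeps the smaller of both changes, favours genes alike under both. The share of any transcript differed by at least 10 points between Nst72hHL and Nst72hNL in 15 of the 100 genes, beside 9.2% of the 1478. The median of the largest difference was 5.37 points over the 100 genes and 2.29 points over the 1478. The shares of both conditions were used by the rule, so nothing is read from the excess over the background. In 3 genes it was at least 20 points, and these are named after their values were seen. The gaining transcript had 45.4% at Nst72hHL and 72.2% at Nst72hNL in g3765, 41.7% and 64.0% in g13974, and 24.9% and 45.1% in g4281. In all 3 the share was lower under HL, and in Control it was 19.5%, 19.4% and 8.27%. The authors' means over length gave 45.6% at Nst72hHL and 70.7% at Nst72hNL in g3765.

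The gaining transcript was the longer one in 68 of the 100 genes and the shorter one in 32. Over the 1478 genes, most of which shifted little, it was longer in 61.4%. Gaining and losing transcripts of the 100 genes differed in length by a median of 548 bases, against 142 bases over the 1478. The difference was under 100 bases in 10 of the 100 genes, where 37.4% of the 1478 were that close, and at least 1000 bases in 26, where 12.0% were that far apart. Of these 26, the longer transcript gained in 15 and the shorter in 11. The largest difference was in g4281, whose gaining transcript has 10716 bases and whose losing one has 1586. What the added or missing stretch is could not be read from lengths, and the sequences were not used here.

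The 100 genes have 268 transcripts. There are 2 transcripts in 49 genes, 3 in 39, 4 in 7 and 5 in 5. Over the 1478 genes, 65.8% have 2 transcripts. The abundance of the 100 genes was close to that of the 1478, with a median gene total of 30.3 FPKM at Nst72hNL, 27.7 at Nst72hHL and 27.2 in Control, against 33.4, 33.8 and 29.2 FPKM.

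Of the 31 genes that the paper annotates by name (the autophagy genes and the genes of its quantitative PCR), 7 have 2 or more transcripts. The rule left 1 of them out before the ranking, and of the other 6, 0 are among the 100. ATG12, a ubiquitin-like protein that is joined to ATG5 in the autophagy conjugation system, came directly after the last gene taken. Its 1999-base transcript had 56.0% in Control, 51.9% at Nst12hHL, 69.9% at Nst72hNL and 69.5% at Nst72hHL, and the gene total was 23.38, 29.02, 34.54 and 36.64 FPKM. By the authors' means its score was 20.2 points and its rank 40, so its place outside the list depends on the summary. ATG7, the activating enzyme of the same system, had a 3058-base transcript with 50.9% in Control, 79.3% at Nst12hHL, 60.4% at Nst72hNL and 63.6% at Nst72hHL, most shifted at 12 h. Its score was 9.56 points at rank 238, and 3.35 points at rank 681 by the authors' means. By pooled FPKM the mixture was nearly constant in ATG3, an enzyme of ATG8 lipidation, in ATG101 of the ATG1 kinase complex, in KAT (3-ketoacyl-CoA thiolase of fatty acid breakdown) and in VTC4 (a putative polyphosphate polymerase subunit), with scores of 2.42, 1.87, 0.0745 and 0.0380 points in that order. By the authors' means ATG101 scored 6.99 points at rank 361, with 10.8% for its 1377-base transcript in Control where pooled FPKM gave 4.14%.

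The genes at the threshold show how small the counted shifts become. In g8864, the 2211-base transcript had 16.8% in Control, 7.43% at Nst12hHL, 30.3% at Nst72hNL and 31.1% at Nst72hHL, on the other side of Control at 12 h. In g7306, the 3226-base transcript had 74.9%, 67.8%, 61.5% and 59.0%, and 2 shorter transcripts shared the remainder. In g5323, outside the list, the 2931-base transcript had 52.3%, 49.4%, 65.7% and 69.4%. By pooled FPKM, the shifts of these genes on either side of the boundary were of like size. By the authors' means, g8864 scored 14.9 points at rank 83 and g7306 13.25 points at rank 118. Outside the list, g3729 scored 20.2 points at rank 40 and g5323 19.4 points at rank 42.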

How the data were processed

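RNA-seq of 32 samples in 4 conditions was analysed at the level of transcripts. According to the submitters' processing notes, CASAVA 1.8, Bowtie 1.0.0, cutadapt 1.1, RSEM 1.2.9 and DESeq were used. Their genome build and annotation version: not given in the sources used here. For each transcript and gene the authors deposited RSEM expected counts, TPM and FPKM as 1 pooled value per condition, with a posterior mean and 95% bounds of FPKM for transcripts. Within a condition, FPKM was not a fixed multiple of expected count over listed length. In Control, the 3007-base transcript of g1692 had 32.58 FPKM from 14793.9 expected counts, and its 503-base transcript had 2.04 FPKM from 142.74. For its count and listed length, the shorter transcript thus had slightly more FPKM. The FPKM shares therefore do not rest on the listed lengths alone. The authors also deposited pairwise comparisons, whose mean normalized counts per condition (a signal from the authors, scaled between libraries) were divided by length for a second share. The Control mean was taken from its comparison with Nst72hNL. Their fold changes, log2 changes and p-values were not used.

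Shares, scores and the gaining and losing transcripts were computed from pooled FPKM. Bounds of a share set 1 transcript at its lower and the others at their upper FPKM bound, and the reverse. Gene totals were compared on log2(FPKM + 1), which understates changes of low values. Scoring was run on simulated counts with counting noise only and with planted shifts larger than most of the scores reported here. This checked the calculation and not the list, since neither the spread between cultures nor errors of read assignment were simulated. No test between conditions was possible with pooled values, and 0 columns of single samples were used.

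The 100 genes and all lists were chosen with earlier results of these data known. Genes named in the text are the annotated ones, the 2 highest scores with a longer and with a shorter gaining transcript, the 2 largest share changes at 12 h, the 2 largest rises and falls of the gene total at Nst72hNL, and 2 on each side of the threshold. Others are said to be named after their values were seen. Other units, minima, thresholds, scalings and pseudocounts were tried as alternatives. No sequence is shown because no reference was used. Python 3.11.15 with numpy 2.4.6, pandas 2.3.3 and matplotlib 3.10.9 was used.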

Additional observations from a re-analysis of the deposited data

Results flagged for a closer look

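In 2 of the 100 genes the transcript that gained at 72 h lost share at 12 h by at least 10 points. This difference between time points was not tested. The count was not made over all genes that met the FPKM minimum. It therefore has no background here and is not read as a trait of the chosen genes. In g1287, the 1655-base transcript had 38.0% of the gene in Control, 22.3% at Nst12hHL, 86.9% at Nst72hNL and 75.3% at Nst72hHL, a change of -15.7 points at 12 h. The gene total was 16.22 FPKM in Control, 74.34 at Nst12hHL, 12.89 at Nst72hNL and 11.26 at Nst72hHL, so that the opposite mixture stood beside a total 4.58-fold above Control. In g16674, the 1004-base transcript had 44.6%, 26.7%, 67.2% and 76.3% in the same order, a change of -17.8 points at 12 h, and the gene total was 21.44, 39.48, 24.13 and 22.27 FPKM. The authors' means over length gave the same directions, with 23.3% at Nst12hHL against 42.4% in Control for g1287 and 28.1% against 49.4% for g16674. Light, time and N all differ between Nst12hHL and Control and cannot be told apart.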

How the results depend on the processing

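The 100 genes depended most on the filter and on the use of both lights. With a minimum of 20 FPKM 57 of them were again among the 100 highest, with a minimum of 5 FPKM 68, with no minimum 32, with Nst72hNL alone 63 and with Nst72hHL alone 67. With shares from expected counts 80 were, from TPM 100, from posterior mean FPKM 95 and from the authors' means over length 71. Within a condition TPM is proportional to FPKM. Shares from TPM therefore equal those from FPKM by construction, here and below, and are no check. Changes of the leading transcript, of share at 12 h and between lights, and the number of genes whose longer transcript gained, stayed within 1.5 times the main count for each unit of the share that was run: expected counts and the authors' means for all of them, posterior mean FPKM for all but the length, and TPM for the leading transcript only. Thresholds moved the counts by construction: at 5 and 20 points, 73 and 17 genes changed at 12 h (29.9% and 2.37% of the 1478) and 55 and 3 between lights (30.4% and 0.812%). At folds of 1.5 and 4, gene totals were higher in 29 and 3 genes at Nst72hNL (27.8% and 3.79% of the 1478), 24 and 2 at Nst72hHL (26.8% and 4.06%) and 20 and 1 at Nst12hHL (20.7% and 1.08%). They were lower in 8 and 0 at Nst72hNL (13.5% and 1.76%), 7 and 0 at Nst72hHL (11.8% and 1.49%) and 7 and 0 at Nst12hHL (9.27% and 1.01%). With TPM, 25 genes were at least 2-fold higher at Nst72hNL and 19 at Nst72hHL, and 0 were lower at Nst72hNL (22.9%, 19.8% and 4.06% of the 1478). TPM placed the median log2 ratio of the 1478 genes at 0.43 for Nst72hNL and 0.34 for Nst72hHL, where FPKM gave 0.16 and 0.13. Median-of-ratios scaling left 3 genes higher at Nst12hHL and 0 lower at Nst72hNL, with a median of -0.04 over the 1478 genes at 12 h, where FPKM gave 0.15. Under this scaling the genes that passed were not counted over the 1478, so its counts have no background here. Of the named genes, the mean 72 h change of g2712 was 41.6 points with the authors' means in place of 79.6. With expected counts, that of g1692 was 6.57 points in place of 18.3. That of g15391 was then 54.4 points in place of 44.1, and that of g7 was 20.3 in place of 15.5. The comparisons with the authors' means, except for the ranking itself, and those for the named genes were chosen after seeing the data. Expected counts, unlike FPKM, are not divided by transcript length, so the differences between these shares include that change of unit. The cause of the differences was otherwise not tested. Leaving out a replicate was not run. No paired analysis was possible because the values are pooled over the replicates of a condition.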

Other observations

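Outside the 100 genes, 12 of the 1478 had a transcript that changed by at least 10 points at Nst12hHL and no transcript that changed by as much as 5 points in either 72 h condition. The largest such change was in g12111, whose 7105-base transcript had 51.7% of the gene in Control, 25.4% at Nst12hHL, 51.9% at Nst72hNL and 52.2% at Nst72hHL. The next was in g5014, whose 2511-base transcript had 78.9%, 60.9%, 78.2% and 75.9%. These values and the count of 12 are by pooled FPKM. By the authors' means over length the score of g5014 was 6.85 points, so it would not meet the limit of 5 points at 72 h. The score of g12111 by those means was 1.86 points. Both were picked by this size after the values were seen, and each value is 1 pooled number. Nst12hHL is the only condition at that time, and its light also differs from Control.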
